A study of Mus musculus with 6 samples.

Results

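The expression of 7 mouse genes of arginine, nitric oxide and itaconate metabolism was examined in leukocytes from inflamed joints: Arg1, Arg2, Nos2, Irg1, Slc7a2, Odc1 and Ass1. They were chosen by symbol from the 20394 genes of the count table, and all 7 were found. Irg1 is listed under its older symbol, and current annotation calls it Acod1. The data came from C57BL/6 mice with antigen-induced arthritis (AIA), which were immunised with 10 μg of methylated bovine serum albumin in complete Freund's adjuvant and challenged with 100 μg of it in the knee on day 21. CD45+ cells were sorted from the digested joints and sequenced one by one from the 3′ end of the RNA. Of the 6 samples, 2 were labelled PBS (vehicle) and 4 PEPITEM (300 μg of a peptide given intraperitoneally), and every sample came from an arthritic, challenged joint. The barcodes carry library numbers from 1 to 6 that no source used here ties to a sample, so no cell was assigned to a treatment and PBS and PEPITEM were not compared.

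Arginine stands at a branch point of leukocyte metabolism. It enters the cell through cationic amino acid transporters such as Slc7a2 and is split by the arginases, the cytosolic Arg1 and the mitochondrial Arg2, into urea and ornithine, from which Odc1 starts the synthesis of polyamines. The inducible nitric oxide synthase Nos2 competes for the same arginine and releases nitric oxide and citrulline, and Ass1, with argininosuccinate lyase, turns citrulline back into arginine. Irg1 makes itaconate from cis-aconitate, an intermediate of the citrate cycle, in activated myeloid cells. Arg1 and Nos2 are widely used as markers of opposed states of macrophage activation.

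The table held 32953 cells, with 2919 to 9345 cells and between 47273569 and 123367661 unique molecular identifiers (UMIs, tags that count single RNA molecules) per library. Median depth ran from 9923 to 14001 UMIs per cell across the libraries, and 138 barcode sequences occurred in more than 1 library, in 276 cells. Cells were assigned to classes by marker genes, none of which was among the 7 genes, and 22 classes of at least 50 cells were compared. They included 2182 precursors of the B lineage, 861 granulocyte precursors and 326 stem and progenitor cells. The part of the joint that these cells came from was not tested. A further 3918 cells carried markers of more than 1 lineage and were kept apart as mixed cells. Of these, 3486 paired granulocyte markers with monocyte, macrophage or dendritic markers. The 3918 mixed cells were deep, with a median of 25553 UMIs. The transcript of Ptprc, which encodes CD45, was found in 95.8% of cells, but in 7.29% of the 96 fibroblasts and 10.5% of the 19 erythroid cells, although the cells had been sorted for CD45. Levels are given in CPM, the UMIs of a gene divided by all UMIs of the class and multiplied by 1000000, with exact Poisson 95% confidence intervals, and shares of cells with at least 1 UMI carry exact Clopper-Pearson 95% intervals. These intervals cover counting error only. Since no library has a known treatment, the library values are listed one by one with no mean or test, and differences between classes are described only.

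Mouse promoter sequences of 3 of the 7 genes, Irg1, Odc1 and Ass1, were at hand from RefSeq and are shown. Each runs from 250 bases before to 50 bases after the start of the gene (build GRCm38.p6). Links between their motifs and the levels by class were not tested. Irg1 lies on the forward strand of chromosome 14, and its promoter spans chr14:103046762-103047061. The promoters of Odc1 (chr12:17544623-17544922) and Ass1 (chr2:31470020-31470319) are also on the forward strand. Capitals mark every match, on either strand, of the TATA box (TATAAA), the E-box (CACGTG) and the GC box (GGGCGG).
Irg1: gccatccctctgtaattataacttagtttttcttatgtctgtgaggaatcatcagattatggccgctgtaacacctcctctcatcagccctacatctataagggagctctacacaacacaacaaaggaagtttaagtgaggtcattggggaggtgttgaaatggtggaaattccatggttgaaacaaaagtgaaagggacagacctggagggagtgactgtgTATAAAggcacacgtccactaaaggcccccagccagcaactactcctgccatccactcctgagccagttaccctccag
Odc1: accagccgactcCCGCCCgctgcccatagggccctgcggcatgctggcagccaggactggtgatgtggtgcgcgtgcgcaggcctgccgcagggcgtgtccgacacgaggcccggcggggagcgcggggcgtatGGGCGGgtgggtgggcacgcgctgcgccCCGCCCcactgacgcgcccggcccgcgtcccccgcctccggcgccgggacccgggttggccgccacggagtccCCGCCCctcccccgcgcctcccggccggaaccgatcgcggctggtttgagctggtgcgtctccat
Ass1: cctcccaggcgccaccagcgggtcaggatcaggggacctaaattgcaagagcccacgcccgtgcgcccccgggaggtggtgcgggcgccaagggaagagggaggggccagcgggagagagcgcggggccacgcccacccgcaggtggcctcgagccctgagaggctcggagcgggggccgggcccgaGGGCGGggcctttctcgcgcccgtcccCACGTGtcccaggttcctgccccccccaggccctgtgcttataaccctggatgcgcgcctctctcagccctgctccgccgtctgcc
The Irg1 promoter, 47% G or C, held a TATA box 28 bases before the start and no GC box. A TATA box of these letters occurred in 14.2% of 27025 promoters of the same length. The Odc1 promoter, 78% G or C, held 4 GC boxes, and the Ass1 promoter, 74% G or C, held 1 GC box and 1 E-box, 36 bases before the start. GC boxes occurred in 35.9% of all promoters and E-boxes in 7.24%. The AP-1 motif TGANTCA, the interferon-gamma activated sequence TTCNNNGAA, the C/EBP motif TTGCNNCAA and the cyclic AMP response element TGACGTCA were found in none of these 3 windows. Across all promoters, their shares were 7.93%, 8.47%, 2.12% and 1.88%. Arg1, Arg2, Nos2 and Slc7a2 had no entry among these sequences.

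In the GENCODE M21 annotation of the same build, Arg1 spans chr10:24915221-24927484 on the reverse strand, Nos2 spans chr11:78920787-78960254 and Arg2 spans chr12:79130777-79156301, both on the forward strand. Irg1 (chr14:103046977-103056573), Odc1 (chr12:17544794-17551505), Ass1 (chr2:31470207-31520672) and Slc7a2 (chr8:40862396-40922308) also lie on the forward strand. For Irg1, Odc1 and Ass1 these starts lie upstream of the RefSeq starts used for the promoter windows. The distances of motifs given above refer to the RefSeq starts. By the GENCODE starts, the TATA box of Irg1 and the E-box of Ass1 would lie after the start and not before it. Arg2 overlaps Vti1b and Gm48780 on the opposite strand, Slc7a2 overlaps the non-coding Gm26584 on the opposite strand, and Odc1 holds the small nucleolar RNA gene Gm22748 on its own strand. How the counting treated these overlaps is not given in the sources used here.

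The 7 genes were ranked among the 22 classes of at least 50 cells, which leaves out the 34 basophils. They did not all lead in the same class. Irg1 and Arg2 peaked in neutrophils, Arg1 in macrophages marked by Spp1, Fn1 and Thbs1, Nos2 in macrophages marked by the interferon-induced Cxcl9, Cxcl10 and guanylate-binding proteins, Odc1 in type 2 innate lymphoid cells and T cells, Ass1 in migratory dendritic cells, and Slc7a2 in the few fibroblasts. In all, 185004 UMIs of Irg1 were counted in 13301 cells, 71878 of Arg2 in 14325 cells, 56209 of Odc1 in 13341 cells, 20092 of Arg1 in 1812 cells, 16600 of Ass1 in 6170 cells, 3108 of Slc7a2 in 750 cells and 1267 of Nos2 in 372 cells. Nos2 was the sparsest, and 53.8% of its positive cells held a single UMI.

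**Figure D1:**
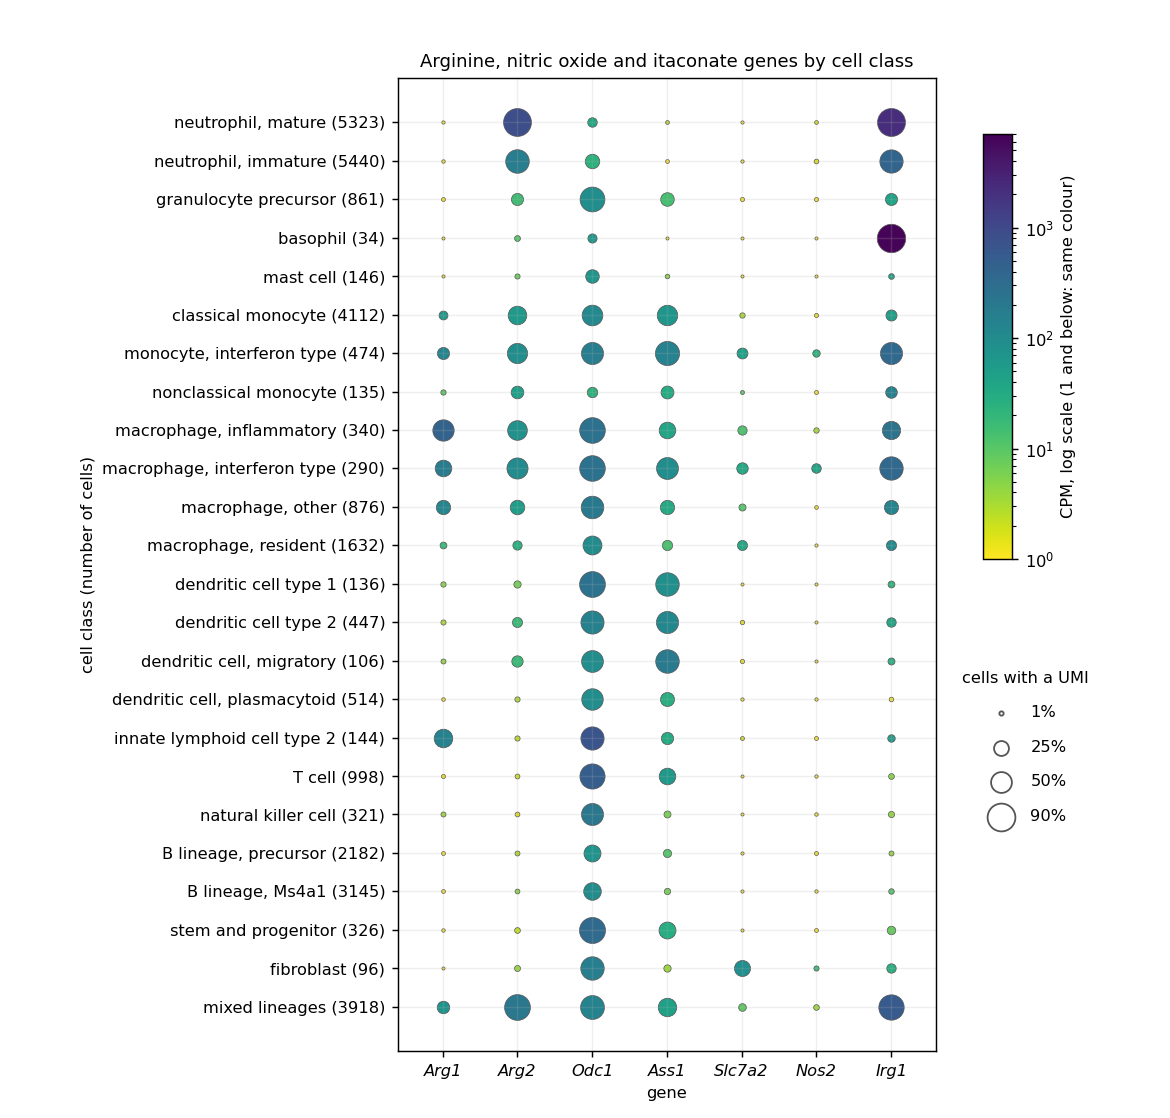
Levels of the 7 genes in 23 classes and in the mixed cells. Colour gives CPM on a log scale, the area of a dot follows the percent of cells with a UMI, and the number of cells stands beside each class. Irg1 was darkest in the 34 basophils (6478 CPM), followed by mature neutrophils (2298 CPM), and Arg2 was darkest in mature neutrophils (860 CPM). Odc1, Irg1 and Arg2 were each seen in every class.

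Irg1, which makes itaconate, was highest in neutrophils among the ranked classes, where mature cells held 35.7% and immature cells 19.6% of its UMIs, and mixed cells 33.97%. Mature neutrophils held 2298 CPM (95% interval 2280 to 2315) and 90.9% of the 5323 cells had a UMI. The level in libraries 1 to 6 was 3477, 2769, 2649, 2053, 2118 and 1986 CPM. In immature neutrophils, which still carry transcripts of granule proteins such as Ngp, Ltf and Camp, it was 399 CPM, with 769, 603, 588, 216, 372 and 317 CPM in libraries 1 to 6. The lowest library of the mature cells therefore lay above the highest library of the immature cells, and the ratio within a library ran from 4.50 to 9.49. Mature cells were shallower, with a median of 4773 UMIs against 13203, and counted as UMIs per cell the difference was smaller, 12.4 against 6.66, a ratio of 1.86. In granulocyte precursors the share of positive cells after thinning to 3000 UMIs was 5.40%.

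Arg2, the mitochondrial arginase, followed the same order. Mature neutrophils held 860 CPM (849 to 871), with 908, 936, 838, 738, 822 and 918 CPM in libraries 1 to 6, and 90.3% of them had a UMI. Immature neutrophils held 170 CPM, with 222, 238, 145, 111, 159 and 163 CPM in the same libraries, so that no library of the 2 classes overlapped. The ratio was 5.05 pooled and 3.93 to 6.62 within libraries, and 1.63 in UMIs per cell. Of 7667 genes compared between the neutrophil classes (at least 5 CPM in one of them), 16.1% were at least 2-fold higher pooled in mature cells and higher, by any amount, in every library. Irg1 and Arg2 were 2 of the 3 genes of this group that could be compared, and Odc1, at 35.7 against 23.7 CPM, was the third and did not reach 2-fold. The maturity gate was set on a score, and 450 of 10763 neutrophils lay within 0.05 of its limit.

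In single mature neutrophils the pair was usually found together: 4408 of 5323 cells had UMIs of both. Arg2 was found in 91.1% of the cells with Irg1 and 82.1% of those without it, and after thinning in 85.1% and 75.3%. Arg1, in contrast, was close to absent from neutrophils, with 58 UMIs in 10763 cells (0.485 CPM), of which 29 lay in mature cells. In library 3, which had the highest Arg1 level over all cells, neutrophils held 8.56 CPM of Arg1, against 0.735 CPM or less in the other libraries. Nos2 stood at 1.6 CPM in mature and immature neutrophils alike, and Slc7a2 and Ass1 at 0.377 and 1.36 CPM in all neutrophils. T cells are listed as a class low in both transcripts, at rank 19 for Irg1 and 21 for Arg2 among the 22 classes. After thinning they had a UMI of Irg1 in 1.23% of cells and of Arg2 in 0.614%, against 86.4% and 83.7% of mature neutrophils. The median depths before thinning were 9068 UMIs in T cells and 4773 in mature neutrophils.

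**Figure D2:**
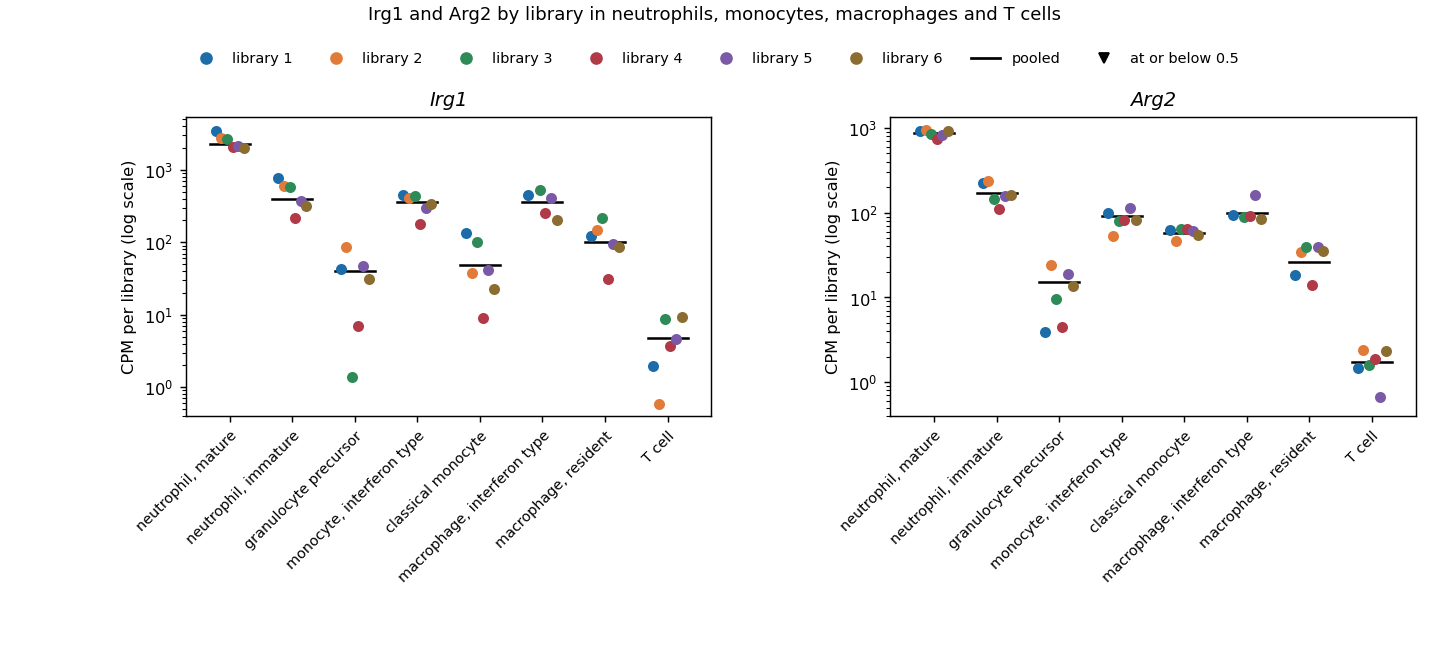
Irg1 (left) and Arg2 (right) in CPM on a log axis, 1 point per library with at least 10 cells of the class and a line for the pooled value. In both panels the 6 points of mature neutrophils lie above the 6 of immature neutrophils, and the pooled values of T cells, 4.82 CPM for Irg1 and 1.73 CPM for Arg2, lie at the bottom.

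Basophils, the rare granulocytes that carry Mcpt8 and Cd200r3, had the highest Irg1 level of any class, although with 34 cells they were too few to enter the ranking. Irg1 was found in 32 of the 34 cells (94.1%, 80.3 to 99.3) at 6478 CPM (6122 to 6848). After thinning, 90.6% of 32 basophils had a UMI. By library the level was 7282 CPM in 7 cells, 5105 in 10, 7176 in 8, 10976 in 2, 7857 in 4 and 4161 in 3. Each of these values lay above that of mature neutrophils in the same library. The summed level of the neutrophil markers was 376 CPM in basophils and 231617 CPM in mature neutrophils, and Arg2, which neutrophils share, was found in 1 basophil, with 2 UMIs. Of the 146 mast cells, 1 held 10 or more UMIs of Irg1, against 28 of the 34 basophils.

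Irg1 was also found in monocytes and macrophages, most of all in those with interferon-induced transcripts. Interferon-type monocytes held 356 CPM and the remaining classical monocytes 48.5 CPM, higher in the former in 6 of 6 libraries, at 3.30-fold to 20.1-fold. Interferon-type macrophages held 361 CPM, with 453, 521, 255, 409 and 201 CPM in libraries 1 and 3 to 6, and resident macrophages 102 CPM, with 121, 219, 31.4, 93.5 and 85.3 CPM in the same libraries. The Irg1 level of interferon-type macrophages did not differ beyond its library spread from that of immature neutrophils (399 CPM) or interferon-type monocytes. Mixed cells whose leading markers were those of macrophages held far more Irg1, 806 CPM against 164 CPM in all unmixed macrophages, and more Arg2, 271 against 51.2 CPM. Their neutrophil markers summed to 73782 CPM against 2648 CPM in unmixed macrophages, and the part of these in the difference was not tested.

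Arg1, the cytosolic arginase, was concentrated in few cells. Of its 1812 positive cells, 961 were monocytes and macrophages, 680 were mixed cells and 171 were anything else. Inflammatory macrophages, marked by Spp1, Fn1 and Thbs1, held 438 CPM (423 to 453), and 52.6% of the 340 cells (47.2 to 58.1) had a UMI, or 34.4% after thinning. By library, 1 to 6, the level was 599, 210, 680, 146, 182 and 280 CPM. The median over libraries was 245 CPM, and no cluster of the unsupervised clustering took the name of this class. The tenth of these cells with the most Arg1 held 67.7% of its UMIs. Resident macrophages were cells that scored on markers such as Lyve1, Cd163 and Timd4 or on markers such as Fxyd2, Aqp1 and Vsig4, pooled into a single class. Arg1 in this resident class was 18.4 CPM and by library 14.3, 53.5, 64.0, 7.72, 6.25 and 2.98 CPM. The lowest library of the inflammatory class was above the highest of the resident class.

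Compared with resident macrophages, inflammatory macrophages held at least 2-fold more Arg1, Irg1 and Odc1 pooled, each higher in 6 of 6 libraries, at 23.8-fold, 2.34-fold and 2.66-fold pooled. These were 3 of the 6 genes of the group that could be compared, against 4.49% of 9679 genes. Arg2 and Ass1 were 3.12-fold and 2.91-fold higher pooled but higher in 5 of 6 libraries, and Slc7a2 ran the other way, 12.3 against 36.4 CPM, lower in 5 of 6 libraries. Interferon-type macrophages were intermediate for Arg1, at 176 CPM, and their Arg1 was below that of inflammatory macrophages in 4 of the 5 libraries with enough cells. Of 3138 macrophages, 606 lay within 0.05 of a limit between these classes, which are ranges of scores.

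Classical monocytes held 59.6 CPM of Arg1, and by library, 1 to 6, 141, 79.4, 261, 10.5, 6.67 and 8.32 CPM. The same 3 libraries, 1 to 3, were the highest for Arg1 over all cells, at 76.4, 39.6 and 184 CPM, against 16.0, 12.6 and 9.83 CPM in libraries 4 to 6. Over all cells, Arg1 varied 18.7-fold between the lowest and highest library, Slc7a2 13.9-fold, Nos2 9.89-fold, Ass1 4.44-fold, Odc1 2.52-fold, and Irg1 1.81-fold, while Arg2 stayed between 117 and 164 CPM. Whether these differences follow treatment cannot be told, since the libraries have no labels. Levels over all cells also depend on the mix of classes, and its part was not tested. Between libraries, interferon-type macrophages made up 0.0344% to 2.48% of cells and resident macrophages 0.930% to 11.1%. Within all macrophages, Arg1 ran from 42.8 to 293 CPM and Slc7a2 from 13.4 to 66.4 CPM. Within classical monocytes, Arg1 was found mainly outside the cell cycle: 1330 cells with at least 3 cycling markers held 6.59 CPM and the other 2782 held 98.2 CPM. The ratio was 3.30 to 9.94 within libraries, and 14.9 pooled, above that of every single library. Arg2 (77.2 against 30.4 CPM) and Irg1 (68.5 against 20.9 CPM) were also at least 2-fold higher pooled in the monocytes that did not cycle, and higher in 6 of 6 libraries, by 2.03-fold to 3.37-fold for Arg2 and 1.18-fold to 5.20-fold for Irg1. Of 9460 genes, 5.55% met that rule, and 3 of the 5 genes of the group that could be compared. In UMIs per cell the ratios of monocytes that did not cycle to those that did were 9.80 for Arg1, 1.67 for Arg2 and 2.15 for Irg1. Ass1 was 59.9 CPM in monocytes that did not cycle and 74.1 CPM in those that did.

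Outside the myeloid cells, Arg1 was highest in type 2 innate lymphoid cells, tissue lymphocytes that carry Gata3, Il1rl1 and Il17rb. They held 140 CPM (119 to 163), and 39.6% of 144 cells (31.5 to 48.1) had a UMI. The level was 106, 172, 242, 157, 95.4 and 42.8 CPM in libraries 1 to 6, so the gene was found there in every library, in 7 to 12 cells each. After thinning, 24.0% of these cells had a UMI of Arg1, against 0.205% of T cells. The summed macrophage markers were at 9.25 CPM in this class and 11.6 CPM in T cells, and at 7771 CPM in inflammatory macrophages. A positive cell held 2.91 UMIs of Arg1 on average, against 17.6 in inflammatory macrophages.

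**Figure D3:**
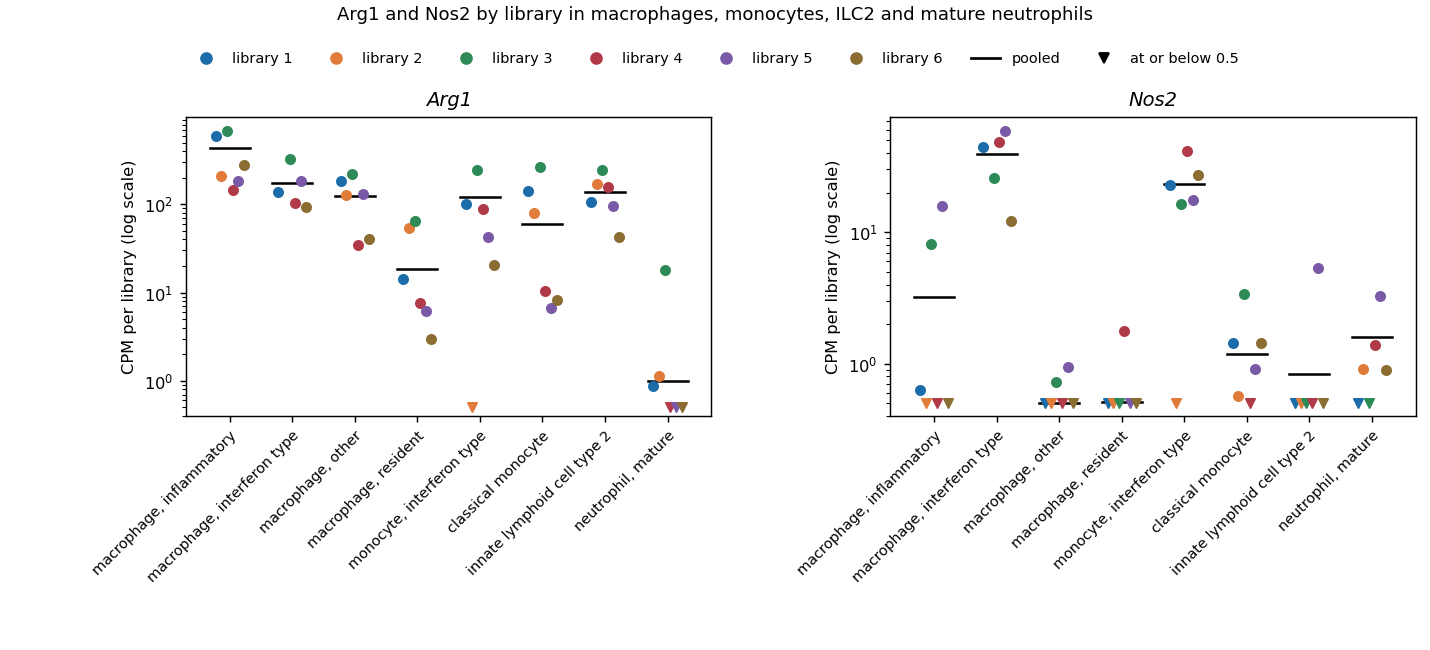
Arg1 (left) and Nos2 (right) in CPM on a log axis, 1 point per library with at least 10 cells of the class, triangles for values at or below 0.5 CPM, and a line for the pooled value. Arg1 was found in all macrophage classes and type 2 innate lymphoid cells, highest in inflammatory macrophages (438 CPM), whereas Nos2 stood above 10 CPM in all libraries of interferon-type macrophages that had enough cells.

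Nos2, the inducible nitric oxide synthase, was rare and had its highest levels in interferon-type cells. Interferon-type macrophages and monocytes held 19.3% and 16.1% of its UMIs, mixed cells 31.6% and immature neutrophils, at a low level per cell, 11.4%. Interferon-type macrophages held 39.6 CPM (34.8 to 44.9), and 28 of 290 cells (9.66%, 6.51 to 13.7) had a UMI, or 5.21% after thinning. The level was 44.2, 25.7, 48.6, 59.2 and 12.2 CPM in libraries 1, 3, 4, 5 and 6, and library 2 had 2 such cells. Interferon-type monocytes held 23.2 CPM, with 22.8, 0, 16.4, 41.8, 17.7 and 27.2 CPM in libraries 1 to 6, a spread that overlaps that of the macrophages. The next class, fibroblasts, owed its 17.9 CPM to 2 cells. When clusters in place of the marker gate defined the interferon-type macrophages, their Nos2 level was 7.70 CPM, and fibroblasts led. Inflammatory macrophages stood at 3.20 CPM, resident macrophages at 0.509 CPM and classical monocytes at 1.19 CPM.

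Against inflammatory macrophages, Nos2 was the only one of the 7 genes at least 2-fold higher pooled in interferon-type macrophages and higher in all 5 libraries compared, at 12.3-fold pooled, with 23 UMIs in the lower class. That rule was met by 1.98% of 9236 genes. Against resident macrophages, 6 of the 7 genes met it (6.89% of 9733 genes). Arg1 was 9.57-fold, Ass1 7.18-fold, Arg2 3.82-fold, Irg1 3.55-fold and Odc1 2.66-fold higher, and Nos2 77.8-fold higher, against 11 UMIs in 2 resident macrophages of library 4. The exception was Slc7a2, at 34.5 and 36.4 CPM. In the comparisons with inflammatory and resident macrophages, Nos2 passed the limit of 5 CPM only through the interferon-type class. A higher call was therefore the only one open to it. Interferon-type monocytes met the rule against classical monocytes for Irg1 and for Ass1 (142 against 65.9 CPM), with 2.97% of 9376 genes meeting it. Their pooled Nos2 and Slc7a2 ratios were 19.5 and 14.6, but in library 2, which had 11 such cells, no UMI of either was found. In the same 6 comparisons, none of the genes that could be compared (3 to 7 of them) was at least 2-fold lower pooled and also lower in every library. That rule was met by 21.1% of genes between neutrophil classes, 10% and 13.3% against resident macrophages and 1.35% against inflammatory macrophages. Between the monocyte classes 5.82% met the rule, and 8.81% in monocytes that did not cycle against those that did. Some genes could not have met it, since 5 CPM in either class was enough to be compared. Nos2 entered only through the interferon-type cells, with 3.20 CPM in inflammatory macrophages, 0.509 in resident macrophages and 1.19 in classical monocytes. So did Slc7a2 against classical monocytes (3.09 CPM). With so few genes, the lack of lower calls says little about them.

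Arg1 and Nos2 were found in the same cells at times. Of 3138 macrophages, 23 had UMIs of both (0.733%, 0.465 to 1.10), which became 0.334% after thinning to 3000 UMIs and 1.11% with macrophages defined by clusters. Clusters named as macrophages also held mixed cells, up to 72.9% in the interferon-type cluster. Among the 7859 monocytes and macrophages, Arg1 was found in 37 of the 103 cells with Nos2 (35.9%, 26.7 to 46.0) and in 11.9% of the cells without it, and more often in the cells with Nos2 in all 5 libraries that could be compared. In thinned cells the Arg1 shares were 33.3% and 7.11%, from 42 cells with Nos2, and Arg1 was found more often with Nos2 in 4 of 5 libraries. Within the interferon-type macrophages, 14 of the 28 cells with Nos2 also had Arg1, against 29.4% of the cells without Nos2. In inflammatory macrophages all 8 cells with Nos2 had Arg1 (63.1 to 100%), against 51.5% of the cells without Nos2, and 1 library could be compared. After thinning, 3 cells with Nos2 remained, all with Arg1 (29.2 to 100%), against 33.8% without.

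The other genes of the group were also found more often in cells with Nos2 or Arg1. Ass1, which supplies arginine from citrulline, was found in 78.6% of monocytes and macrophages with Nos2 and in 37.3% of those without, and after thinning in 38.1% and 12.0%. Irg1 was found in 67.0% of the cells with Nos2 and 18.8% without, and after thinning in 54.8% and 10.6%. For Slc7a2, an arginine importer, the shares were 23.3% and 5.45%, and after thinning 14.3% (5.43 to 28.5) and 2.43%. Irg1 was found in 45.4% of cells with Arg1 and 15.8% of those without, and after thinning in 30.0% and 9.36%, higher with Arg1 in 6 of 6 libraries. Odc1, which takes up the ornithine that arginase makes, was found in 73.7% and 47.4%, and after thinning in 40.1% and 20.6%. The arginases overlapped less clearly: Arg2 was found in 44.2% of cells with Arg1 and 30.6% without, but after thinning in 15.9% and 12.5%, with intervals that overlap. Inside inflammatory macrophages alone, thinned cells with and without Arg1 held Odc1 in 40.5% and 34.4%, and inside interferon-type macrophages in 35.0% and 37.7%. Inside interferon-type macrophages, thinned cells with and without Nos2 held Ass1 in 33.3% and 22.0% and Irg1 in 66.7% and 39.6%. The intervals of each of these 4 within-class pairs overlap, but those of some other within-class pairs do not. Inside interferon-type monocytes, thinned cells with and without Arg1 held Odc1 in 47.6% and 24.4%, higher with Arg1 in 5 of 5 libraries. Inside inflammatory macrophages, thinned cells with and without Irg1 held Arg2 in 37.7% and 9.62%. In the same class, those with and without Arg1 held Slc7a2 in 9.48% and 0%, and 1 library could be compared. Without thinning, at least 4 of the 7 genes were found together in 36.6% of interferon-type macrophages, 28.8% of inflammatory macrophages and 27.2% of interferon-type monocytes, against 2.08% of resident macrophages and 0.488% of mature neutrophils. Median depth differed between these classes, at 19982 UMIs in interferon-type and 12131 in resident macrophages and 4773 in mature neutrophils.

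**Figure D4:**
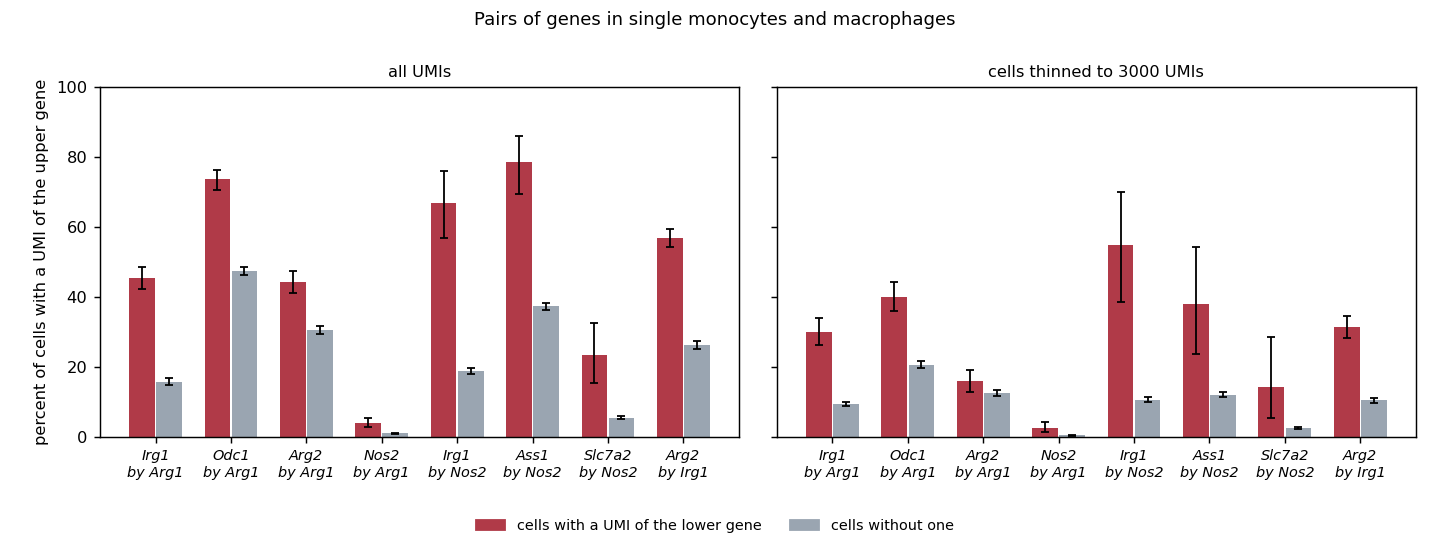
Share of the 7859 monocytes and macrophages with a UMI of the upper gene, among cells with (red) and without (grey) a UMI of the lower gene, with exact 95% binomial intervals, from all UMIs (left) and after thinning to 3000 UMIs (right). Red bars were higher in all 8 pairs, and after thinning the intervals met only for Arg2 by Arg1.

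Odc1, the rate-limiting enzyme of polyamine synthesis, was the broadest of the 7 by the level in its lowest class. That was 23.4 CPM among the 22 classes, against 1.48 CPM for Arg2 and 1.11 CPM for Irg1, although Arg2 was found in more cells. Type 2 innate lymphoid cells led with 712 CPM (665 to 762), and libraries 1 to 6 stood at 444, 542, 1306, 703, 482 and 627 CPM. T cells followed with 515 CPM, in libraries 1 to 6 at 637, 370, 738, 513, 455 and 324 CPM, a spread that overlaps that of the innate lymphoid cells. Stem and progenitor cells held 345 CPM, interferon-type and inflammatory macrophages 258 CPM each, and type 1 dendritic cells 247 CPM. Mature and immature neutrophils were at 35.7 and 23.7 CPM, below every library of those classes. In thinned cells, 54.6% of T cells and 53.5% of type 2 innate lymphoid cells had a UMI of Odc1, against 6.05% of mature neutrophils.

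The order of Odc1 between cycling and other cells varied with the class. In classical monocytes it was 84.5 CPM in cycling cells and 125 CPM in the rest, lower in the cycling cells in 6 of 6 libraries. Counted as UMIs per cell this difference was absent, at 2.01 in cycling monocytes and 1.95 in the rest. In CPM, cycling stem and progenitor cells were also lower, 264 against 416 CPM, in 3 of 3 libraries with enough cells. In cycling and other T cells it was 469 and 526 CPM, higher in the cycling cells in 1 of 5 libraries. It was higher in cycling cells among Ms4a1 B cells, 117 against 95.8 CPM in 5 of 5 libraries, precursors of the B lineage, 79.7 against 61.8 CPM in 5 of 6, and immature neutrophils, 27.6 against 21.1 CPM in 5 of 6.

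Ass1, argininosuccinate synthase, was highest in migratory dendritic cells and interferon-type monocytes. Migratory dendritic cells, which carry Ccr7 and Fscn1, led with 188 CPM (169 to 210), at 213, 284, 114 and 109 CPM in libraries 1, 3, 4 and 5, the ones with at least 10 such cells. By clusters no cluster took that name, and type 2 dendritic cells led with 91.8 CPM. Interferon-type monocytes came next with 142 CPM and with 172, 93.9, 139, 151, 118 and 126 CPM in libraries 1 to 6, and so the order of the first 2 classes did not hold beyond the library spread, and migratory dendritic cells were higher in 2 of 4 libraries. Type 2 dendritic cells held 111 CPM, interferon-type macrophages 95.0 CPM, type 1 dendritic cells 51.4 to 104 CPM by library, and plasmacytoid dendritic cells 27.6 CPM. Classical monocytes held 65.9 CPM, T cells 60.7 CPM, and resident macrophages 13.2 CPM. Library 2 was the lowest for Ass1 over all cells (15.9 CPM) and in type 2 dendritic cells, at 32.3 CPM against 56.9 to 202 CPM in the other libraries.

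Slc7a2, the cationic amino acid transporter induced in activated macrophages, led in fibroblasts at 87.9 CPM (72.8 to 105), in 28 of 96 cells, with 34.6, 146 and 59.2 CPM in libraries 1, 5 and 6. By clusters the level was 58.4 CPM. The macrophage marker sum of these cells was 180 CPM, against 12240 CPM in resident macrophages. Among leukocytes, Slc7a2 was found in interferon-type monocytes (45.2 CPM), resident macrophages (36.4 CPM) and interferon-type macrophages (34.5 CPM), whose library ranges overlapped throughout. In resident macrophages the level was 36.5, 65.6, 23.7, 15.4, 89.3 and 8.93 CPM in libraries 1 to 6, and this class held 25.4% of all its UMIs. It was at 3.09 CPM in classical monocytes, and no UMI of it was found in 998 T cells. There 3 UMIs, the most that a count of 0 was taken to allow, would be 0.289 CPM.

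**Figure D5:**
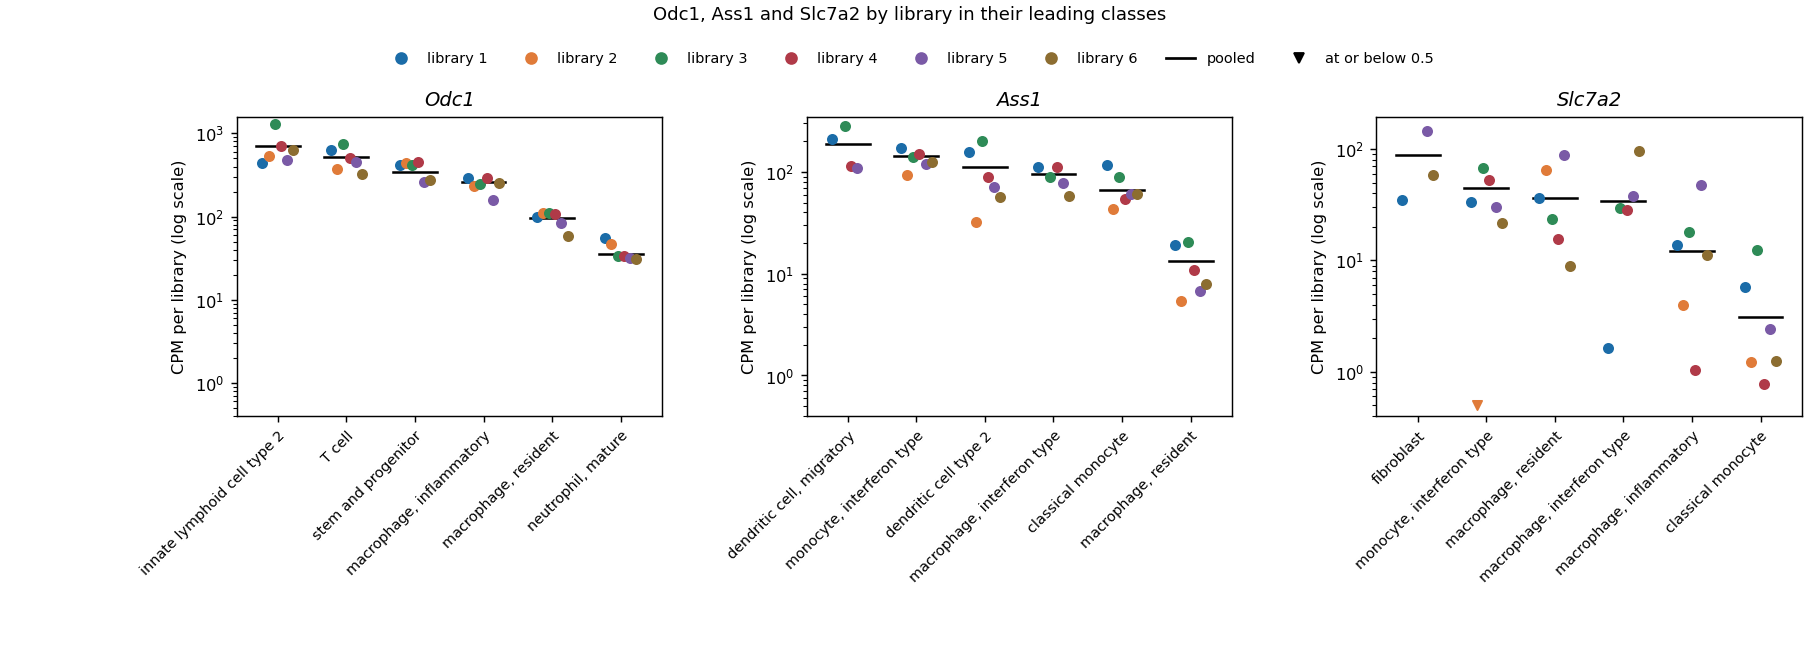
Odc1, Ass1 and Slc7a2 in CPM on a log axis in 6 classes each, 1 point per library with at least 10 cells of the class and a line for the pooled value. The pooled Odc1 level fell in steps from type 2 innate lymphoid cells (712 CPM) to mature neutrophils (35.7 CPM). The library points of the leading classes overlapped for Odc1, Ass1 and Slc7a2 alike.

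Around these 7 genes, 44 further genes of the same pathways were read, of which 42 were in the table and 31 reached 20 CPM in some class. Of all 20394 genes, 10590 reached 20 CPM in a class of at least 50 cells. All 4 arginine transport genes reached it: the general importer Slc7a1 was highest in type 2 innate lymphoid cells (242 CPM), where Odc1 also led, and lowest in mature neutrophils (9.98 CPM), while Slc7a7 was highest in macrophages (51.5 CPM in macrophages of no further type). Of the urea cycle genes, Asl, argininosuccinate lyase, reached 50.2 CPM in migratory dendritic cells, the leading class of Ass1, and Otc and Cps1 were not among the genes analysed. Of 5 ornithine and proline genes 4 reached 20 CPM, led by Oat, ornithine aminotransferase, in fibroblasts (167 CPM).

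Of 11 polyamine genes, 9 reached 20 CPM. Smox, spermine oxidase, was highest in mature neutrophils, at 575 CPM against 109 CPM in immature ones, and the synthases Srm and Sms were at 0.835 and 3.65 CPM there. Srm, spermidine synthase, led in granulocyte precursors (84.8 CPM) and Sms, spermine synthase, in natural killer cells (157 CPM). Sat1, which acetylates spermidine and spermine for export, led in nonclassical monocytes (1038 CPM), and Oaz1, the antizyme that inhibits ornithine decarboxylase, was high in every class, from 474 to 1105 CPM.

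Of 7 genes for the cofactor of nitric oxide synthase or its brakes, 5 reached 20 CPM. Gch1, the first enzyme of tetrahydrobiopterin synthesis, was highest in mast cells (671 CPM), and in interferon-type and inflammatory macrophages it was 151 and 121 CPM. Ddah2, which breaks down inhibitory methylarginines, led in fibroblasts (89.4 CPM). The other nitric oxide synthases, Nos1 and Nos3, did not exceed 1.49 and 3.32 CPM in any class. Of 8 genes next to itaconate, 7 reached 20 CPM, and succinate dehydrogenase subunits Sdha and Sdhb, the enzyme that itaconate inhibits, varied only 2.84-fold and 3.65-fold between classes.

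The genes most alike in pattern were sought over the 22 classes among 10590 genes, by Pearson's r of log2(CPM + 1). This is a description, since the classes share libraries. Arg2 was most like Slc16a3, the lactate exporter (r = 0.97), Ccr1 and Trem1, and Irg1 like Ets2 (0.94), Slc16a3 and Arg2 (0.92). Arg1 was most like Mdfic (0.86), Dppa3 and Ms4a7, and Nos2 like Saa3 (0.84), Sod2 and C1ra. The Nos2 pattern included fibroblasts at 17.9 CPM, a level owed to 2 cells. Slc7a2 was most like the complement genes C4b (0.92) and Cfb and the receptor kinase gene Axl. Odc1 was most like Hacd3 (0.85), Rrp9 and Mdn1, and Ass1 like the interferon-inducible antigen processing genes Psme2 (0.88), Tap1 and Psmb8.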

How the data were processed

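UMI counts of CD45+ cells from the digested joints of 6 samples were analysed. The authors deposited 1 table of whole UMI counts per gene and cell, not scaled for depth, made by them from reads aligned to mm10 with Cell Ranger 7 per the labels, after removal of ambient RNA and doublets. Entries stored as 0 (742 for Irg1, 88 for Arg1) were read as values that this removal emptied. Cells were classed by markers with Python 3.11.15: at least 3 markers with a UMI, a score above 0.25, mixed where another lineage scored above 0.3, and 0.3 for sub-classes. These limits were set after seeing the data, and class names stand for these gates. Marker lists, pathway genes and the 7 members, all named, were chosen with earlier results of these data known. A class led with at least 50 cells, and a library gave a value with at least 10. Cells were thinned to 3000 UMIs, leaving out shallower ones (643 of 5323 mature neutrophils, 71 of 4112 classical monocytes). A count of 0 allows up to 3. Leiden clusters (scanpy 1.11.5), 4 markers, equal weights for cells or libraries and leaving out libraries were the alternatives.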

Additional observations from a re-analysis of the deposited data

How the results depend on the processing

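In 77 recalculations of the 7 levels in their leading classes and of the cells with both Arg1 and Nos2, 34 stayed inside the counting interval of the value reported and 43 left it, which is narrow for abundant genes. In CPM, Leiden clusters gave Arg2 817, Nos2 7.70, Irg1 2188, Slc7a2 58.4 and Odc1 645, and no cluster was named for inflammatory macrophages or migratory dendritic cells. Mixed cells made up 72.9% of the cluster behind the Nos2 value. Requiring 4 markers gave Arg1 455 and Irg1 2270. Equal weight for each cell gave Arg2 922, Nos2 34.4, Irg1 2509, Slc7a2 111 and Odc1 567, and the median over libraries Arg1 245, Arg2 873, Irg1 2383, Slc7a2 59.2, Odc1 584 and Ass1 164. Mixed cells added to the class of their first lineage, an alternative chosen after seeing the data, gave Arg1 333, Arg2 744, Nos2 30.7, Irg1 1979 and Slc7a2 63.8. Leaving out 1 library gave Arg1 329 to 499, Arg2 838 to 882, Nos2 34.03 to 44.6, Irg1 2197 to 2415, Slc7a2 61.6 to 119, Odc1 569 to 756 and Ass1 146 to 201 CPM. The leading class stayed first in all of these with a library left out or 4 markers required. By clusters it was first for 3 of 7 genes, and Arg1 led in other macrophages (330 CPM), Nos2 in fibroblasts (16.0 CPM), Irg1 in a cluster of 52 cells named basophil (4920 CPM) and Ass1 in type 2 dendritic cells (91.8 CPM). Macrophages with both Arg1 and Nos2 made up 0.334% after thinning and 1.11% by clusters, and the causes of these shifts were not tested. PBS and PEPITEM samples could not be paired because the library numbers carry no replicate label, while classes were compared within each library. The share of cells with a UMI in the leading class left its interval after thinning for all 7 genes, and fell to 34.4% for Arg1, 83.7% for Arg2, 5.21% for Nos2, 86.4% for Irg1, 18.3% for Slc7a2, 53.5% for Odc1 and 36.2% for Ass1.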
